A study of Mus musculus with 9 samples.

Results

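The genes described here encode sodium channel beta subunits, Scn2b, Scn3b and Scn4b. They were taken by name from a table of 21536 genes measured in single cells of the mouse trigeminal ganglion, and all 3 were found in it. The neurons in which their levels were compared were chosen by other genes, as set out below.

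Voltage-gated sodium channels open to start the action potential. Each has a large pore-forming alpha subunit, which can be joined by beta subunits, small proteins that cross the membrane a single time and carry an immunoglobulin-like domain outside the cell. Beta subunits alter how alpha subunits open, inactivate and reach the cell surface, and they also act in cell adhesion. The products of Scn2b and Scn4b are linked to the alpha subunit by a disulfide bond, whereas the product of Scn3b associates without such a bond. The intracellular tail of the Scn4b product has been tied to resurgent current, a brief sodium current on repolarization in fast-firing neurons. In sensory ganglia, alpha subunits differ between large myelinated neurons and small nociceptors.

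The cells came from wild type mice of the FVB/N strain, 3 to 6 weeks old by the labels and 3 to 5 weeks old by the published methods, with no treatment or transgene in any sample. Trigeminal ganglia of several mice per run were dissociated, neurons were enriched on a Percoll step of 12.5% over 20% and by depletion of other cells, and the RNA was captured by Dropseq, which tags each transcript with a cell barcode and a unique molecular identifier (UMI). The 9 runs were deposited as 1 table whose barcodes do not name the run. The table was therefore treated as 1 pooled sample, and differences between groups of cells have no replicate check. Below, a level is the number of UMIs per 1000000 UMIs of the group (CPM), with an exact Poisson 95% interval in parentheses. Ratios carry exact conditional binomial intervals and shares of cells Clopper-Pearson intervals, all at 95%. The intervals cover counting error only, not the spread between mice or runs.

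The table held 6997 barcodes and 30491529 UMIs, with a median of 2031 UMIs per barcode (range 1000 to 190815). A neuron was a barcode with 500 to 7500 genes, a UMI of at least 3 of the 6 genes Tubb3, Scn9a, Snap25, Nefl, Nefm and Uchl1, and none of Epcam. There were 3855 neurons with a median of 3014 UMIs. They were placed by the first match in this order: Trpm8 group (2 or more UMIs of the cold receptor Trpm8, 244 neurons), Mrgprd group (2 or more, 379), Mrgpra3 group (1 or more, 49), Nppb group (2 or more, 57), Cd34 group (1 or more, 320), Nefh group (5 or more UMIs of the heavy neurofilament gene without Trpv1, 450) and Calca group (5 or more UMIs of the calcitonin gene-related peptide gene with 1 or more of the heat receptor Trpv1, 916). The remaining 1440 neurons entered no group. Of the 6 somatosensory markers checked, 5 were in the table, and 86.5% of neurons held at least 1 of these 5. The share was 90.9% to 98.4% in the 7 groups and 74.0% in the ungrouped neurons. The ungrouped neurons also held 8612 CPM of glial markers against 167 to 514 in the groups. Of the barcode sequences, 6 occurred in a pair of columns with different values, and 11 of these 12 columns were neurons.

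All 3 genes lie on the plus strand of chromosome 9 of the GRCm38 assembly. Scn2b (ENSMUSG00000070304.12) spans chr9:45117782-45130070 with 4 exons in its main transcript, Scn4b (ENSMUSG00000046480.6) spans chr9:45138395-45154152 with 5, and Scn3b (ENSMUSG00000049281.16) spans chr9:40269217-40291618 with 7. Scn2b and Scn4b are neighbours, 8324 bases apart, while Scn3b lies 4.83 Mb away. An antisense long noncoding RNA, Gm10684, overlaps Scn2b and reaches into the gap between these neighbours, and it had 8 UMIs in the whole table. The promoter windows of the neighbours are shown because the levels of these adjacent genes were ordered differently across neurons. Each runs from 250 bases before to 50 bases after the RefSeq transcription start on GRCm38.p6, on the plus strand, at chr9:45117626-45117925 for Scn2b and chr9:45138374-45138673 for Scn4b. CG dinucleotides, which read the same on both strands, are in capitals.
Scn2b: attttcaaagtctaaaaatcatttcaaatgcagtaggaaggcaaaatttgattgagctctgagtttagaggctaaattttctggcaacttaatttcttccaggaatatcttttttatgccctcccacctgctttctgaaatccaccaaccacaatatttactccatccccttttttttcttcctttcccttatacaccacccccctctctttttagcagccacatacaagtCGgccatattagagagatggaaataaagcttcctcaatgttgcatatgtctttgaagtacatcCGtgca
Scn4b: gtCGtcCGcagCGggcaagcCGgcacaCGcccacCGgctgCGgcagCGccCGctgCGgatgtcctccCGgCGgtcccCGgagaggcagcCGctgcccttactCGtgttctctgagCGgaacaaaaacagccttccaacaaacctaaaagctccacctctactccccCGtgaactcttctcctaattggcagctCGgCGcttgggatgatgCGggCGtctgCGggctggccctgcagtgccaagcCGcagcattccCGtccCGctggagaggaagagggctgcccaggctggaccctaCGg
The Scn2b window held 2 CG and was 38.3% G or C, and the Scn4b window held 26 CG and was 66.3% G or C. Over 32851 RefSeq mouse promoter windows of this length the median was 7 CG. As few CG as in Scn2b were found in 23.3% of the windows and as many as in Scn4b in 16.9%. The set of promoter windows used here held no entry for Scn3b, so its promoter is not shown.

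Across the groups, Scn4b varied most and Scn2b least. The SD of log2(CPM + 10) over the 7 groups and the ungrouped neurons was 1.23 for Scn4b, 0.57 for Scn3b and 0.33 for Scn2b. From the highest to the lowest group, Scn4b differed 18.4-fold (14.4 to 23.9) in measured level, with the lowest at background, Scn3b 3.46-fold (2.39 to 4.96) and Scn2b 2.10-fold (1.79 to 2.48). Of the 28 pairs of these 8 sets of neurons, the interval of the ratio excluded 1 in 22 for Scn4b, 21 for Scn3b and 14 for Scn2b. The highest levels were those of Scn4b in the Nefh group, Scn3b in the Mrgpra3 group and Scn2b in the Cd34 group, of which the first and the last lay within counting error of the next group.

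**Figure D1:**
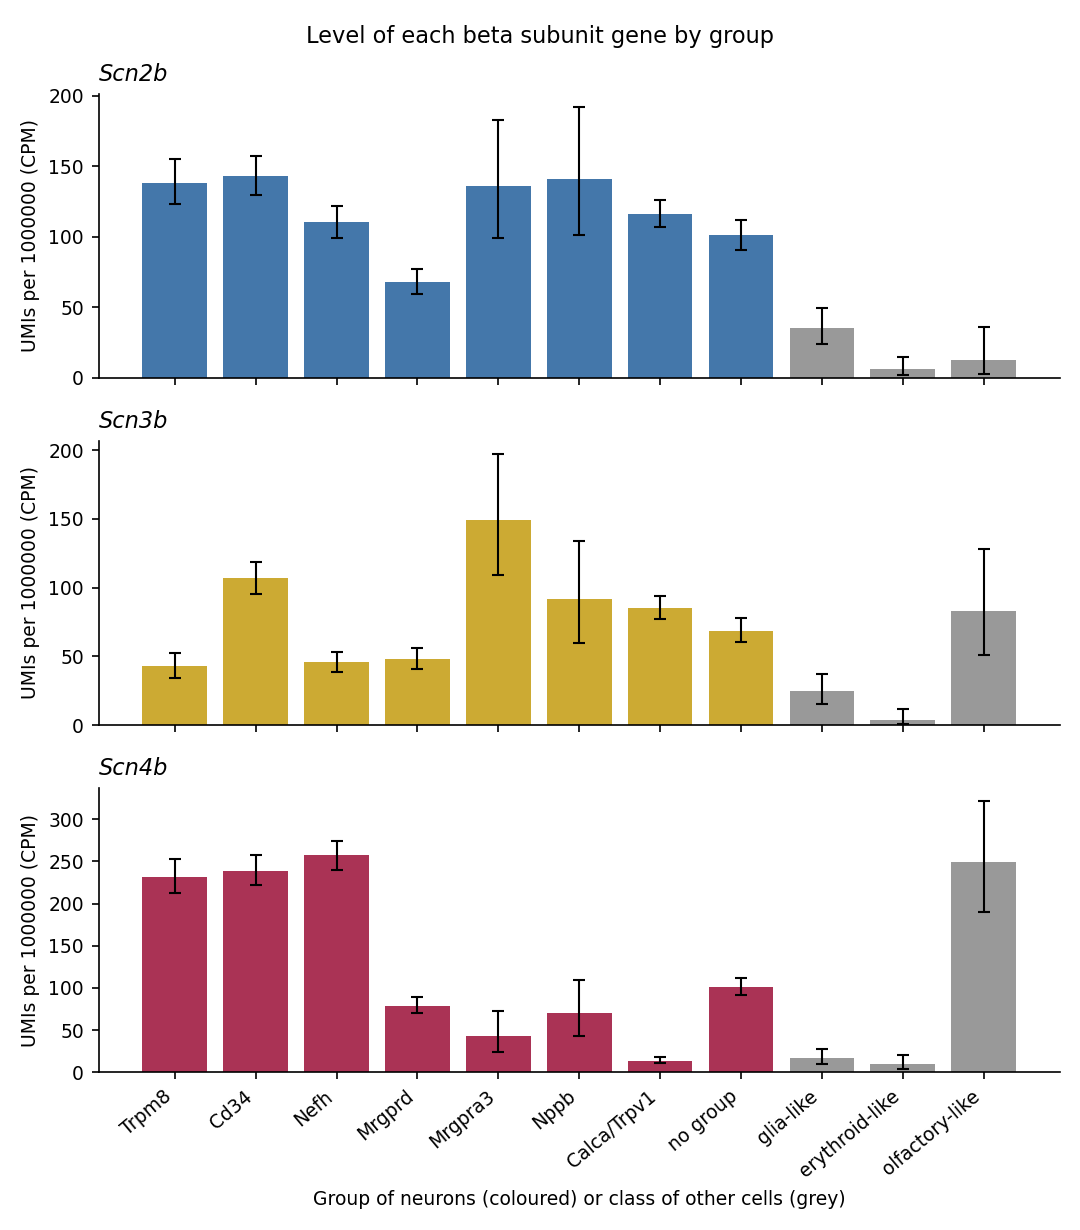
Level of each gene in CPM (vertical axis, UMIs per 1000000) by group of neurons (coloured bars) and in 3 classes of other cells (grey bars), with exact Poisson 95% intervals. Scn4b stood at 232 to 257 CPM in the Trpm8, Cd34 and Nefh groups and at 14.0 CPM in the Calca group, whereas every group held at least 67.9 CPM of Scn2b.

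Scn2b was found throughout the neurons, at 112 CPM (107 to 117) over all of them. The highest level was 143 CPM (129.8 to 157) in the Cd34 group, followed by 141 in the Nppb group, 138 in the Trpm8 group, 136 in the Mrgpra3 group, 116 in the Calca group, 110.4 in the Nefh group and 101 in the ungrouped neurons. Each of these neighbours in the order was within the counting error of the next. The Mrgprd group, non-peptidergic nociceptors, stood below the rest at 67.9 CPM (59.2 to 77.4), and the step down from the ungrouped neurons was 1.49-fold (1.26 to 1.77). A UMI of Scn2b was seen in 31.3% of neurons, in 2.26% of 354 glia-like cells and in 1.01% of 495 erythroid-like cells. The glia-like and erythroid-like cells were shallower, with medians of 1615 and 1387 UMIs, so each cell was also thinned at random to 1000 UMIs. The share was then 9.13% (8.24 to 10.1) in neurons and 0.282% (0.00715 to 1.56) in glia-like cells, and none of the erythroid-like cells held a UMI. Taking 3 counts as the limit that a count of 0 allows, here and below, this leaves a share of up to 0.606%.

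Scn3b was highest in the Mrgpra3 group, neurons marked by an itch receptor, at 149 CPM (109 to 197). It was followed by the Cd34 group at 107 CPM (95.4 to 119), the Nppb group at 91.6, the Calca group at 85.4 (77.4 to 94.0) and the ungrouped neurons at 68.5. At the lower end stood the Mrgprd group with 48.3 CPM, the Nefh group with 45.6 and the Trpm8 group with 42.9 (34.5 to 52.7), which did not differ from one another beyond counting error. The Mrgpra3 group was 1.39-fold above the Cd34 group, with an interval that nearly reached 1 (1.01 to 1.89), and it rests on 48 UMIs in 27 of 49 neurons. The Cd34, Nppb and Calca groups followed without a step between neighbours, and the Cd34 group was 1.25-fold (1.08 to 1.45) above the Calca group in the counts as deposited but below it after thinning, at 87.5 CPM (58.1 to 126) against 98.3 (79.0 to 121). Over all neurons 25.2% held a UMI of Scn3b, against 1.69% of glia-like and 0.606% of erythroid-like cells.

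Scn4b fell into a high and a low set of groups. The level was 257 CPM (240.0 to 274) in the Nefh group, 239 (222 to 257) in the Cd34 group and 232 (212 to 253) in the Trpm8 group, and neighbours among these did not differ beyond counting error. The next level, 101 CPM in the ungrouped neurons, was 2.29-fold lower (1.99 to 2.63) than the Trpm8 group. The Mrgprd group followed with 79.2 CPM, the Nppb group with 70.4 and the Mrgpra3 group with 43.3 (23.7 to 72.7), where neighbours again lay within counting error. The Calca group was lowest at 14.0 CPM (10.8 to 17.7), 3.10-fold (1.61 to 5.57) below the Mrgpra3 group in measured level. Of the 916 neurons of the Calca group, 47 held a UMI of Scn4b (5.13%), against 266 of 450 (59.1%) in the Nefh group.

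The Scn4b level of the Calca group lay within counting error of the levels of glia-like and erythroid-like cells. Glia-like cells held 17.1 CPM (9.80 to 27.8) and erythroid-like cells 10.4 (4.48 to 20.4), and the ratio of the Calca group to them was 0.815 (0.467 to 1.50) and 1.35 (0.646 to 3.25). After thinning, 1.53% of the Calca group held a UMI of Scn4b, 0.565% of glia-like cells and 1.21% of erythroid-like cells. Over the group as a whole these UMIs were thus read as background, and expression of Scn4b was not detectable at this depth. Glia-like levels came mostly from few deep barcodes, since 5 of them held 93.8% of the Scn4b UMIs and 95.7% of the Scn3b UMIs of the class. The barcode with the most Scn4b had 55575 UMIs, and that with the most Scn3b had 61829. Each held a UMI of all 6 neuronal genes, so the glia-like level as deposited is not a clean background. For Scn2b and Scn3b every group of neurons lay above both classes, the Trpm8 group by the least for Scn3b at 1.74-fold (1.09 to 2.88) over glia-like cells as deposited and 8.70-fold (1.94 to 80.1) after thinning.

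The Nppb group, pruriceptors marked by a natriuretic peptide, held 70.4 CPM of Scn4b, but 54 of its 57 neurons had none. The UMIs came from 3 neurons with 14, 3 and 3 UMIs of Scn4b. The first had 30290 UMIs in all, with 23 of Nppb and 52 of Nefh, so that it carried both the group marker and much neurofilament. The other neurons had 13605 and 22228 UMIs, each with 2 UMIs of Nppb, the minimum for the group, and 54 and 66 UMIs of Calca. With 3 neurons behind its level, the group has no firm place in the order for Scn4b.

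The ratio of Scn4b to Scn3b UMIs sets both genes against each other within the same neurons, without division by total UMIs. It was 5.63 (4.74 to 6.72) in the Nefh group and 5.41 (4.32 to 6.84) in the Trpm8 group. It was 2.25 (1.97 to 2.56) in the Cd34 group, where Scn4b was high, and 1.64 (1.34 to 2.01) in the Mrgprd group, where both were low. In the Mrgpra3 group it was 0.292 (0.149 to 0.538) and in the Calca group 0.163 (0.125 to 0.212). Since the genes differ in length and capture, the ratio is read only between groups. The Nefh and Trpm8 groups were not separated at the upper end, and at the lower end the Scn4b UMIs of the Calca group were at background, so that its ratio is an upper limit.

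Single neurons held few UMIs of any of these genes. Scn2b was absent from 2650 of 3855 neurons, was seen with 1 UMI in 683 and with 3 or more in 258, and the most in any neuron was 15. Scn3b was absent from 2882 neurons and reached 11 UMIs. Scn4b was absent from 2861 neurons and seen with 3 or more UMIs in 301, and it reached 47 UMIs in a Trpm8 group neuron with 53867 UMIs in all. There were 49 neurons with 10 or more UMIs of Scn4b, 8 with as many of Scn2b and 1 with as many of Scn3b. In the Cd34 group 91 of 320 neurons and in the Nefh group 100 of 450 held 3 or more UMIs of Scn4b, but only 5 of 916 in the Calca group.

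**Figure D2:**
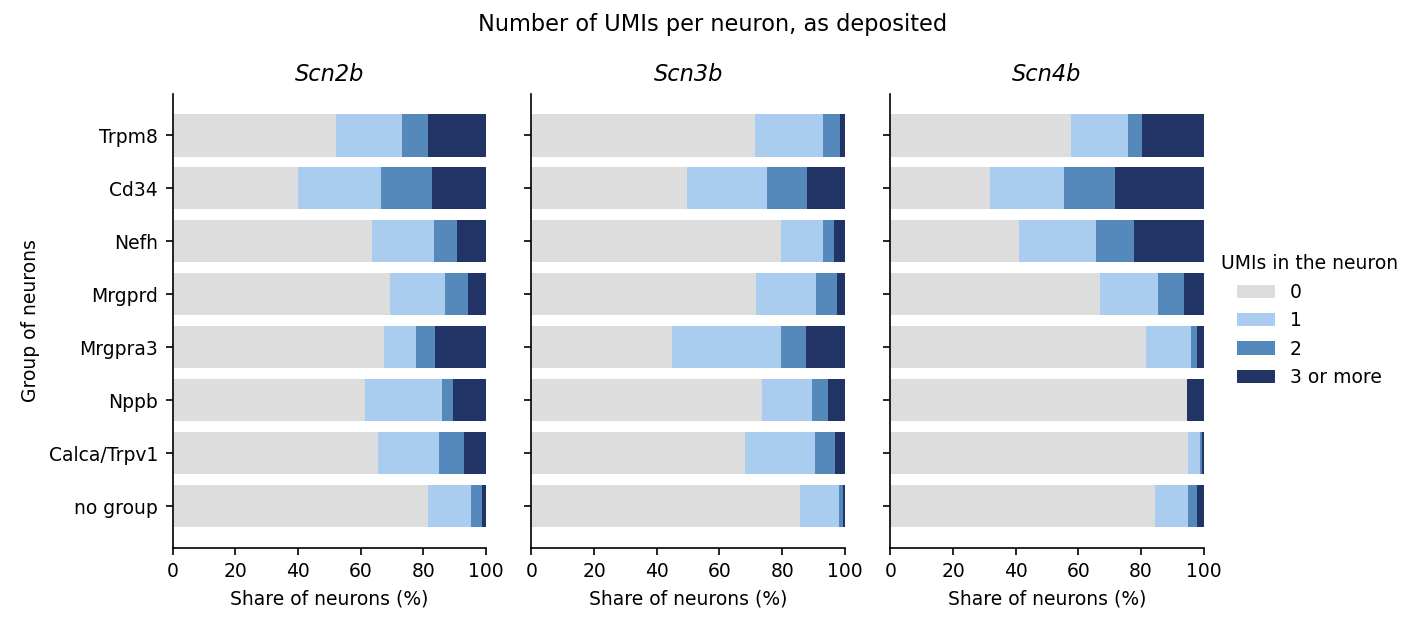
Share of neurons (horizontal axis, percent) with 0, 1, 2 or 3 or more UMIs of each gene, by group, in the counts as deposited. For Scn4b the bar of neurons without a UMI is shortest in the Cd34 group, where 68.1% held one, and longest in the Calca and Nppb groups, where 5.13% and 5.26% did. Groups differ in depth, from a median of 1826.5 UMIs in the ungrouped neurons to 5835.5 in the Cd34 group.

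The difference in Scn4b between the Nefh and Calca groups was seen at each depth. Among neurons below 2000 UMIs the Nefh group held 303 CPM (213 to 417) and the Calca group 29.8 (13.6 to 56.5). Among neurons of 5000 UMIs or more the levels were 243 (225 to 262) and 13.4 (9.75 to 18.0). The level of the Trpm8 group differed with depth, at 56.3 CPM (11.6 to 165) below 2000 UMIs, 161 (117 to 217) up to 5000 and 248 (225 to 272) above. Its Scn4b UMIs were also concentrated, as 15 neurons with 10 or more UMIs held 58.1% of them. These 15 neurons had 12249 to 55655 UMIs and 18 to 253 UMIs of Nefh.

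Scn4b and Scn3b varied with the Nefh level of the neurons in opposite directions. After thinning, neurons without a Nefh UMI (2336 neurons) held 62.9 CPM of Scn4b (53.2 to 74.0). The level was 135 (114 to 159.6) with 1 to 2 Nefh UMIs (1049 neurons), 303 (247 to 369) with 3 to 5 (333 neurons) and 365 (271 to 481) with 6 or more (137 neurons). Scn3b was 89.9 CPM (78.1 to 103) without Nefh and 63.9, 57.1 and 21.9 (4.52 to 64.0) in the higher bins, the last from 3 UMIs. Scn2b stood at 87.3, 127, 114 and 87.6 CPM, with no order. The 4 bins had medians of 2856 to 3229 UMIs before thinning, so depth differed little between them.

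**Figure D3:**
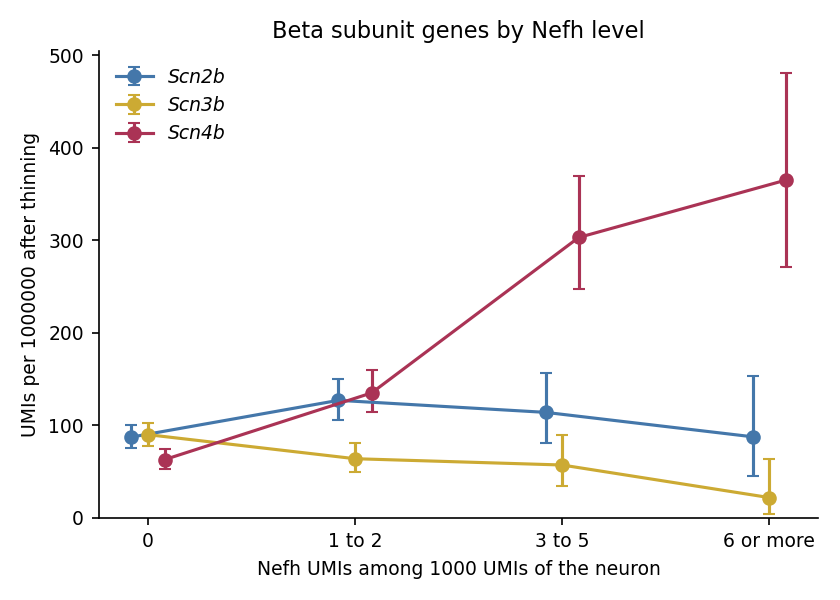
Level of each gene after every neuron was thinned to 1000 UMIs (vertical axis, UMIs per 1000000) by the number of Nefh UMIs among those 1000 (horizontal axis), with exact Poisson 95% intervals. Scn4b was 62.9 CPM without Nefh and 365 with 6 or more Nefh UMIs, while Scn3b was 89.9 and 21.9.

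Subsets within the groups showed where these genes differed among related neurons. In the Trpm8 group, 172 neurons with 5 or more UMIs of Nefh held 261 CPM of Scn4b (238 to 285) and 72 neurons with fewer held 45.8 (24.4 to 78.3), a log2 ratio of 2.51 (1.72 to 3.43). The former were deeper, with medians of 7638.5 and 2729.5 UMIs, and after thinning the log2 ratio was 2.58 (0.94 to 4.92). The Calca group had the same direction, with 35.8 CPM (25.2 to 49.3) in 77 neurons with Nefh at this level and 8.08 (5.49 to 11.5) in the other 839, although its thinned interval included 0 (1.57, -0.91 to 3.49). Within the Calca group Scn4b was also lower in neurons with 5 or more UMIs of the substance P gene Tac1, at 11.7 CPM against 51.6 in 64 neurons with fewer, and here the thinned log2 ratio of -2.41 (-4.21 to -0.29) excluded 0. With the irritant receptor Trpa1 it was 7.75 CPM and without it 21.8, a log2 ratio of -1.49 as deposited and of -1.19 (-3.32 to 0.60) on few UMIs after thinning. All but 2 of these Calca group subsets, those with Nefh and those with little Tac1, stood within the range of the glia-like interval or below it. The subset without Trpa1 stood above the erythroid-like interval (4.48 to 20.4), although its own interval (16.0 to 28.9) reached into it.

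Trpm8 neurons with the neuropeptide gene Gal held less Scn4b, at 158 CPM (138 to 181) against 353 (313 to 397) without Gal, and more Scn2b, at 164 (143 to 188) against 94.9 (74.7 to 119). Those with Trpv1 likewise held less Scn4b, at 138 CPM against 272, and more Scn2b, at 221 against 103. The neurons with either marker were deeper, and after thinning, which leaves few UMIs, the interval of each of these log2 ratios included 0. For Gal, Scn4b went from -1.16 to -0.66 (-1.57 to 0.24) and Scn2b from 0.79 to 0.14 (-0.95 to 1.28). For Trpv1, Scn2b went from 1.09 to 0.88 (-0.29 to 1.98) and Scn4b from -0.98 to -0.05 (-1.18 to 0.96).

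In the Nefh group, Scn4b was 326 CPM (296 to 358) in 133 neurons with Ntrk2, the receptor of brain-derived neurotrophic factor, and 211 (192 to 232) in 317 without it. After thinning, the log2 ratio of 0.50 (-0.05 to 1.04) just included 0. Neurons of the group with 5 or more UMIs of Calca held 174 CPM of Scn4b (148 to 203) against 288 (267 to 309) with fewer, and they held more Scn2b, at 155 CPM (131 to 182) against 93.8 (82.1 to 107). After thinning the log2 ratio of Scn2b was 0.76 (-0.22 to 1.66), against 0.72 as deposited, and that of Scn4b -0.47 (-1.26 to 0.24), against -0.72. A split by Piezo2, the mechanically gated channel of touch receptors, gave 256 and 264 CPM of Scn4b, a log2 ratio of -0.05 (-0.35 to 0.27), and a split by S100b gave -0.32 (-0.63 to 0.01).

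Scn2b differed inside the Calca group by Sstr2, a somatostatin receptor. The 116 neurons with a UMI of Sstr2 held 53.7 CPM of Scn2b (38.9 to 72.3) and the 800 without held 129 (118 to 140.0). This is a log2 ratio of -1.26 (-1.74 to -0.81), and after thinning it was -1.11 with an interval just short of 0 (-2.46 to -0.01). Scn3b did not show this difference, at 84.9 and 85.5 CPM (log2 ratio -0.01, -0.41 to 0.37). In the Cd34 group, neurons with Fam19a4, a marker of C-fibre low-threshold mechanoreceptors, held 119 CPM of Scn3b (106 to 133) against 44.3 (28.1 to 66.5) in 83 neurons without. The thinned log2 ratio of 0.69 (-0.74 to 2.44) included 0. In the Mrgprd group, neurons with Mrgpra1 or Agtr1a held 42.6 CPM of Scn3b and the others 64.4, a log2 ratio of -0.60 (-1.08 to -0.10) as deposited and of -1.07 (-2.37 to 0.16) after thinning.

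**Figure D4:**
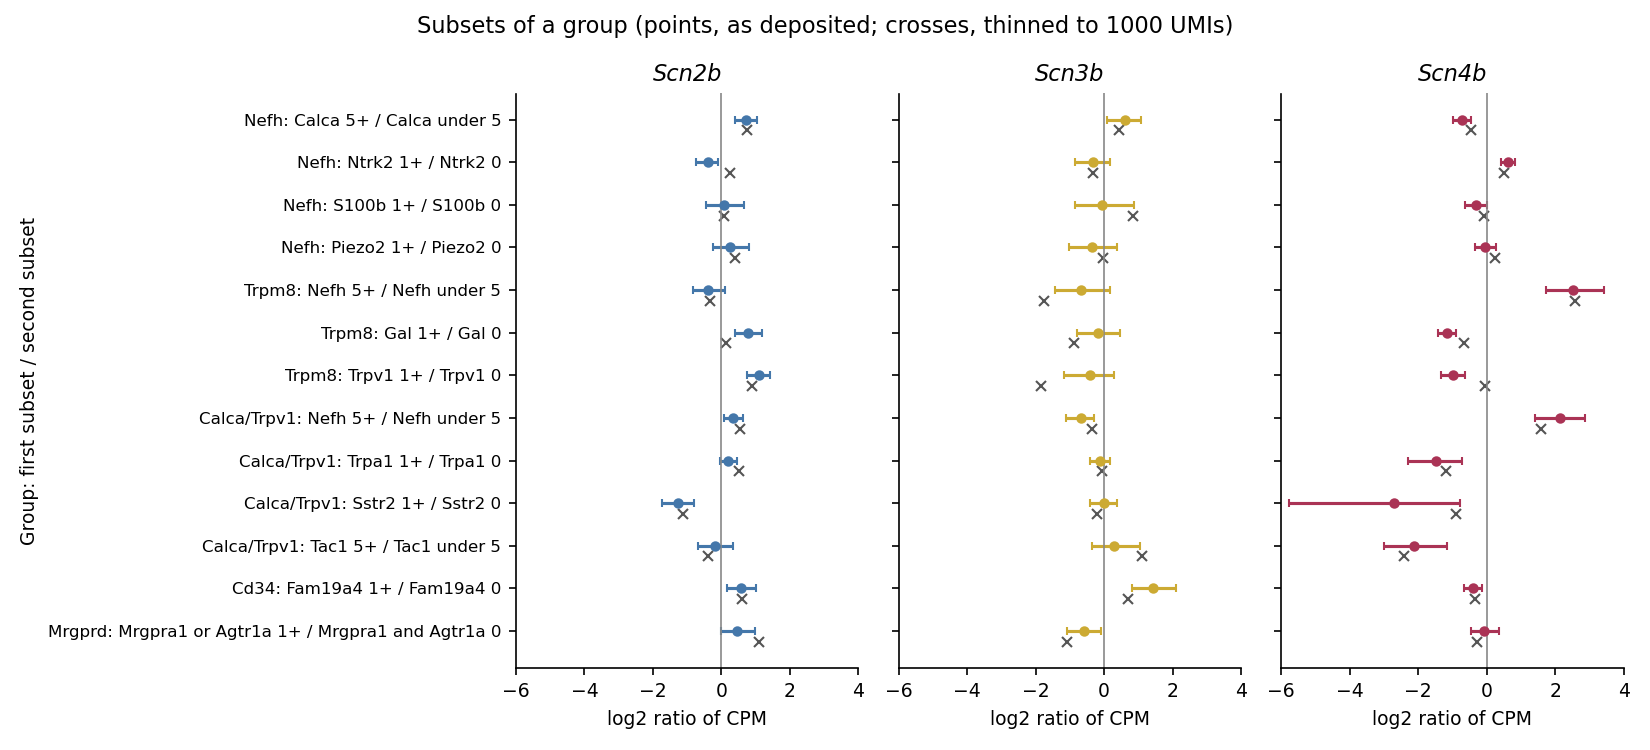
log2 ratio of CPM (horizontal axis) between 2 subsets of a group split by another gene (vertical axis), for each beta subunit gene. Points with exact 95% intervals are from the counts as deposited and grey crosses are from neurons thinned to 1000 UMIs. For Scn4b the Trpm8 group split by Nefh lay at 2.51, and its cross at 2.58.

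The 1440 ungrouped neurons were a mixture, and they were split after their values were seen. Of these, 36 carried olfactory markers, 39 hormone markers and 94 glial markers. Among the rest, 412 neurons with Piezo2 and under 5 UMIs of Calca held 207 CPM of Scn4b (180.5 to 235), 397 neurons with 5 or more UMIs of Calca held 30.1 (20.0 to 43.5), and 462 with neither held 72.1 (56.8 to 90.3). Scn3b was 79.5, 85.9 and 64.5 CPM in these 3 sets, and Scn2b 113, 85.9 and 133. By the order of the rules the ungrouped neurons with 5 or more UMIs of Calca held no Trpv1 and under 5 UMIs of Nefh, and their median depth was 1900 UMIs. Neurons with as much Calca in the Nefh group held 174 CPM of Scn4b, as given above.

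Barcodes outside the neuron rule held these genes as well. Olfactory-like cells (153 barcodes, of which 151 held Omp and 152 Stoml3, genes of olfactory sensory neurons) had 249 CPM of Scn4b (190.2 to 321), seen in 45 cells, and 83.1 CPM of Scn3b (50.7 to 128), seen in 20 cells. They had 3 UMIs of Scn2b, or 12.5 CPM (2.57 to 36.4). Their Scn4b level was 0.971 times that of the Nefh group (0.734 to 1.26), while their Scn2b level was 0.113 times (0.0232 to 0.332). After thinning, 29 of them (95% interval 13.1% to 26.1%) held a UMI of Scn4b, against 0.565% of glia-like cells at the same depth. Only 5 of the 153 held the sensory ganglion gene Avil. The 36 ungrouped neurons with olfactory markers had 268 CPM of Scn4b (149.7 to 441) and no UMI of Scn3b, which allows up to 53.5 CPM.

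Barcodes with more than 7500 genes numbered 40, with a median of 64713.5 UMIs, and 37 of them held Scn4b, at 207 CPM (191 to 224). Pituitary-like cells had 82.1 CPM of Scn4b, but in 43 of 959 cells, of which 20 held 3 or more UMIs. The barcode with the most, 37 UMIs, had 70546 UMIs in all and a UMI of all 6 neuronal genes. It had 7965 genes, so the pituitary-like cells overlap with the barcodes of more than 7500 genes. No barcode was removed as a doublet.

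Each group was then set against all other neurons, over the 12114 genes with at least 50 UMIs in the neurons. A gene was counted as higher or lower when its CPM ratio passed 2-fold, with no test since each side is 1 pooled sample. Scn4b was 2.30-fold higher in the Nefh group (257 against 112 CPM, log2 ratio 1.20, 1.09 to 1.32), where 5.52% of all genes were higher by this rule and Scn2b and Scn3b were not. It was 2.05-fold higher in the Cd34 group (log2 ratio 1.03, 0.91 to 1.15), where 4.25% of genes were higher and 13% lower, and it was at 0.92 (0.79 to 1.06), short of 2-fold, with the group minimums doubled. In the Calca group Scn4b was 12.3-fold lower in measured level, which was at background (14.0 against 172 CPM, log2 ratio -3.62, -3.99 to -3.27), where 9.52% of genes were lower, and 1.23% of genes had a lower ratio than Scn4b.

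In the Mrgpra3 group Scn3b was 2.15-fold higher (log2 ratio 1.11, 0.66 to 1.52, with 6.22% of genes higher) and Scn4b 3.15-fold lower (-1.66, -2.53 to -0.91), against 12.1% of genes lower. The Scn3b ratio fell short of 2-fold without the 5 neurons of each side with the most Scn3b (0.73, 0.13 to 1.27), with the group minimums doubled (0.99) and with equal weight per neuron (0.97), and its thinned interval included 0 (1.09, -0.13 to 2.09). The Scn4b ratio rests on 14 UMIs, of which 5 neurons held 71.4%, and it was -3.11 (-4.99 to -1.75) without the 5 top neurons of each side, with 4 UMIs left, and -2.74 (-8.04 to -0.25) without neurons with markers of other cells, with 1 UMI left. After thinning 2 UMIs were left, the interval of this ratio included 0 (-1.50, -4.55 to 0.37), and the level was not clear of background, at 7.22-fold (0.524 to 99.7) over glia-like and 3.37-fold (0.332 to 18.8) over erythroid-like cells. None of the 3 genes passed 2-fold in the Trpm8 group, where 3.66% of all genes were higher and 16.5% lower, in the Mrgprd group (5.27% higher, 18.5% lower) or in the Nppb group (6.26% higher, 11.5% lower). In the Trpm8 group Scn4b had a log2 ratio of 0.90 (0.76 to 1.04), which was 0.56 without the 5 neurons of each side with the most Scn4b but passed 2-fold, at 1.18 (1.02 to 1.33), with the group minimums doubled. Scn3b had -0.77 (-1.09 to -0.46) there, with -0.35 at equal weight per neuron and -0.19 (-0.79 to 0.37) without neurons with markers of other cells. In the Nppb group the Scn4b ratio of -0.95 passed 2-fold after thinning (-2.72), with equal weight per neuron (-3.03) and without neurons with markers of other cells (-2.10), each on the few UMIs described above. The Mrgprd group was the only one of the 7 in which all 3 genes had a negative ratio with an interval below 0, at -0.82 for Scn2b, -0.62 for Scn3b and -0.88 for Scn4b. After thinning the Scn3b ratio was -0.20 (-0.84 to 0.39), so for Scn3b this does not hold at equal depth. Each gene also passed 2-fold lower there under 1 alternative, Scn2b after thinning (-1.08, -1.83 to -0.41), Scn3b without neurons with markers of other cells (-1.06, -1.67 to -0.51) and Scn4b without the 5 top neurons of each side (-1.06, -1.27 to -0.85). The median of all genes there had a log2 ratio of -0.15. The Scn2b ratio of the Mrgpra3 group (0.29, -0.18 to 0.72) turned to -0.27 without the 5 top neurons of each side, the Scn3b ratio of the Nppb group (0.39, -0.23 to 0.95) to -0.26 and its Scn2b ratio (0.34, -0.15 to 0.79) to -0.13, so no direction is given for any of these.

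Listed alpha subunit genes were set beside the beta subunit genes. Whether each of their products joins a beta subunit was not tested. Of the 9 listed, 8 reached 50 UMIs, and Scn4a did not. In the Nefh group 2 of 8 were higher by 2-fold and 2 lower, where 5.52% of all genes were higher and 9.99% lower. Those higher were Scn1a and Scn8a, channels of fast-firing myelinated neurons, and those lower were Scn10a and Scn11a, the tetrodotoxin-resistant channels of nociceptors. Scn1a stood at 278 CPM there (log2 ratio 2.36, 2.23 to 2.49), Scn8a at 175 (1.85), Scn10a at 145 (-1.61, -1.74 to -1.47) and Scn11a at 68.0 (-2.66, -2.85 to -2.47). In the Calca group none of 8 was higher and 3 were lower, where 5.42% of all genes were higher and 9.52% lower. Those lower were Scn1a (log2 ratio -3.54), Scn7a (-1.48) and Scn8a (-1.79). The Calca and Nefh groups thus stood at opposite sides for Scn1a and Scn8a, as they did for Scn4b. The Cd34 group held 239 CPM of Scn4b, but none of the 8 alpha subunit genes passed 2-fold either way there. In that group 4.25% of all genes were higher and 13% lower. Scn1a was at 0.38 (0.21 to 0.55) there and Scn8a at -0.03 (-0.25 to 0.18). The Trpm8 group held little Scn10a (11.3 CPM, -5.26) and Scn11a (12.7 CPM, -5.01), with 1089 CPM of Scn7a (1.13, 1.06 to 1.19).

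In the Mrgprd group Scn1a was at 4.28 CPM from 14 UMIs, a log2 ratio of -4.64 (-5.51 to -3.89), while Scn4b held 79.2 CPM at -0.88, Scn7a was at -1.37 and Scn8a at -1.08. Scn10a and Scn11a stood at 1098 and 1142 CPM in this group (log2 ratios 2.07 and 2.33), where Scn2b had its lowest level. In the Mrgpra3 group no UMI of Scn1a was seen among 323222, with 14 of Scn4b. Scn9a, the alpha subunit found across sensory neurons, ran from 500.2 CPM in the Calca group to 917 in the Cd34 group, and it is also a gene of the neuron rule.

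**Figure D5:**
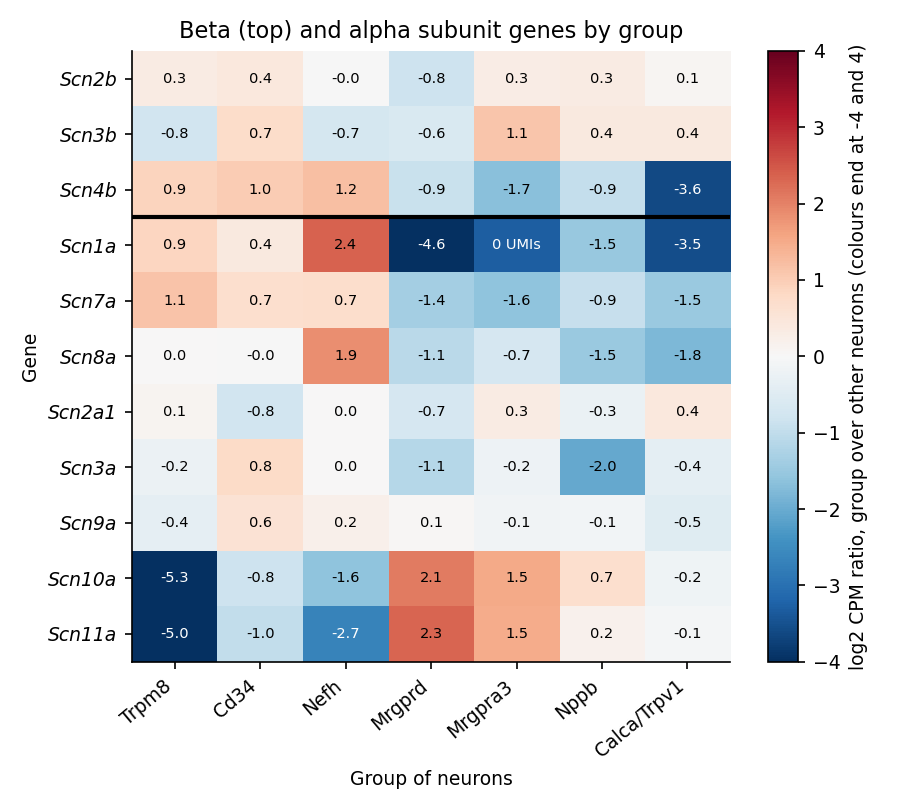
log2 ratio of CPM between each group (horizontal axis) and all other neurons, for the 3 beta subunit genes (above the line) and 8 alpha subunit genes (vertical axis). Red is higher and blue lower, and the box marked 0 UMIs had none in the group. The Scn4b row runs from 1.2 in the Nefh group to -3.6 in the Calca group.

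Over the 7 groups and the ungrouped neurons, Pearson's r of log2(CPM + 10) with Scn4b was 0.88 for Scn7a, 0.84 for Scn1a and 0.79 for Scn8a, and it was -0.60 for Scn10a and -0.66 for Scn11a. Scn3b had r of 0.55 with Scn10a and 0.56 with Scn11a, and -0.51 with Scn1a. For Scn2b r ran from -0.39 with Scn11a to 0.29 with Scn1a. Between the beta subunit genes r was 0.51 for Scn2b with Scn3b, 0.13 for Scn2b with Scn4b and -0.47 for Scn3b with Scn4b. These are descriptions over 8 sets of neurons that share libraries and differ in depth.

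Among 9298 genes with at least 200 UMIs, leaving out the genes of the neuron and group rules and the beta subunit genes, those whose levels followed each beta subunit gene most closely over the 8 sets were ranked by r. For Scn4b they were Chchd3 (0.98), Usp8 (0.97), Iffo1, Atp2b1 and Ndufs6 (each 0.95). Atp2b1, a plasma membrane calcium pump, had 1575 CPM in the Trpm8 group, 1335 in the Cd34 group, 1168 in the Nefh group and 367 in the Calca group. For Scn3b they were Tbc1d16 (0.97), Rapgef1, Ccar2, Mast2 and Sec16a (each 0.92), and for Scn2b Acot8 and Sdhaf1 (each 0.91), Prkg1, Diablo and B3galt6 (each 0.90). The ranking rests on 8 points and has no test.

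Proteins that anchor sodium channels and other channels of fast large neurons gave further context. Of 15 partners and anchors tested, 5 were higher by 2-fold in the Nefh group (5.52% of all genes) and 3 lower (9.99%), with a median log2 ratio of 0.63 against -0.10 over all genes. Those higher were Cntn1, a contactin that associates with sodium channels (423 CPM, 2.03), Nfasc, Nrcam and Cntnap1, adhesion proteins of the node of Ranvier and the flanking paranodes, and Sptbn4, the nodal spectrin. Those lower were Fgf13 (579 CPM, -1.24), Ank3 and Nedd4l. In the Calca group 1 was higher, where 5.42% of all genes were, and 4 were lower, where 9.52% were. Of 9 channel and pump genes of fast large neurons, 7 were higher in the Nefh group (median log2 ratio 1.14, with 5.52% of all genes higher) and 6 lower in the Calca group (median -1.66, with 9.52% lower), among them the pump subunit Atp1b1 with 3927 and 822 CPM, although its level was higher still in the Trpm8 group, at 5288 CPM. Kcna1, a potassium channel beside the node, had 484 CPM in the Nefh group and 25.9 in the Calca group, against 257 and 14.0 CPM of Scn4b, but in the Trpm8 group it had 47.1 CPM (log2 ratio -1.73) against 232 of Scn4b. In the Cd34 group, with 239 CPM of Scn4b, none of these 9 genes was higher and 2 were lower (median log2 ratio -0.38). The shares of all genes there were 4.25% higher and 13% lower.

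Of 3 listed genes of the secretases that cleave beta subunits, Bace1, Psen2 and Ncstn, none passed 2-fold in any of the 7 groups, where 3.66% to 6.26% of all genes were higher and 9.52% to 18.5% lower, so that a count of 0 among 3 genes is near the share over all genes. The level of Bace1 ran from 78.3 CPM in the Trpm8 group to 144 in the Nppb group.

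Detection of these genes in the same neuron was set beside the product of their single shares. After thinning, 32 of 3855 neurons held both Scn2b and Scn3b, against 25.8 from the product of the shares. For Scn2b with Scn4b there were 35 against 33.8, and for Scn3b with Scn4b 22 against 27.2. In the ungrouped neurons 18 held both Scn2b and Scn3b against 8.01, while in the Calca group 7 did against 9.13. As deposited, where deep neurons hold more of every gene, 12.7% of all neurons held both Scn2b and Scn3b against 7.89%. In the counts as deposited, at least 1 of the genes was seen in 55.3% of neurons and all 3 in 5.55%. In the Cd34 group, which was the deepest, the counts were 286 of 320 neurons (89.4%) and 94 neurons (29.4%). After thinning, at least 1 was seen in 35.6% of the Cd34 group, 34.2% of the Nefh group and 30.7% of the Trpm8 group. As deposited, all 3 were seen in 8.22% of the Nefh group and 1.31% of the Calca group, and 3.39% of glia-like cells held at least 1.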

How the data were processed

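Dropseq libraries from 9 runs were deposited by the authors as 1 table of raw counts of UMIs per gene and barcode, without normalization. The submitters' processing notes name bcl2fastq 2.17, STAR 2.5.3a, Seurat 1.4.0.16 and the mm10 build. Counting rules and the strand setting are not given in the sources used here. No barcode has under 1000 UMIs. Neurons and groups were picked by UMI thresholds, and cells of other classes (200 to 8500 genes) by listed markers. UMIs were summed per group (Python 3.11.15, numpy 2.4.6, scipy 1.17.1), and thinning drew 1000 UMIs per cell without replacement. The scripts were tested on simulated data. The genes named were the 3 members, fixed lists of alpha subunits, partners, fast-neuron channels and secretase genes, and the 5 genes most like each member by r. The members and lists were chosen with earlier results of these data known. Alternatives changed depth, cell weights, thresholds, totals and low-count filters. Gene positions are from GENCODE on GRCm38 and promoters from RefSeq. Some planned genes and lists are not reported here. A planned comparison of protein sequences was not run.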

Additional observations from a re-analysis of the deposited data

How the results depend on the processing

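No paired analysis was possible because the barcodes do not name the run, and for the same reason no run could be left out in turn. None of the log2 ratios of the 7 groups that excluded 0 changed sign under any of the 8 alternatives. For the Nefh group over the other neurons, 19 of 24 alternative values moved by less than the counting interval. Those that moved were Scn4b (1.20), which was 1.60 after thinning, 1.61 with equal weight per cell and 1.59 without neurons with markers of other cells, and Scn2b (-0.02), which was 0.20 after thinning and -0.24 without neurons with markers of other cells. For the other 6 groups 115 of 143 values stayed within the interval, and no value could be had for Scn4b in the Nppb group without its 5 top neurons, since 0 UMIs were left. The number of genes past 2-fold moved by over 1.5 times with the minimum of UMIs per gene. With at least 200 UMIs, the genes higher were 351 in the Calca group (from 656), 299 in the Cd34 group (from 515), 412 in the Mrgpra3 group (from 754), 340 in the Nefh group (from 669), 373 in the Nppb group (from 758) and 254 in the Trpm8 group (from 443). With at least 200 UMIs, the genes lower were 592 in the Calca group (from 1153), 748 in the Cd34 group (from 1573), 1136 in the Mrgprd group (from 2242), 675 in the Nefh group (from 1210) and 1101 in the Trpm8 group (from 1993). With at least 1 UMI, the genes higher were 1148 in the Calca group (from 656), 1001 in the Cd34 group (from 515), 1397 in the Mrgpra3 group (from 754), 1005 in the Mrgprd group (from 638), 1466 in the Nefh group (from 669), 1427 in the Nppb group (from 758) and 1038 in the Trpm8 group (from 443). With at least 1 UMI, the genes lower were 2066 in the Calca group (from 1153). These minimums set how many genes entered. With a pseudocount of 1 CPM in place of 10, 4 of the 5 genes most like Scn2b, 4 of those most like Scn3b and 5 of those most like Scn4b were shared. The barcodes of 1 pooled sample limit every comparison to counting error, and with 0 UMIs of each gene in most neurons, absence in a single neuron says little.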
